A study of Mus musculus with 9 samples.

Results

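The motor neurons (MNs) of the gastrocnemius (GS), the calf muscle that points the foot downwards, were compared with those of the extensor digitorum longus (EDL) and the tibialis anterior (TA), which both lift it. The comparison used all 9 samples of the series, 3 arrays from GS mice, 3 from EDL mice and 3 from TA mice, and was made on the log2 array values of all 65956 transcript clusters (the units of the array that stand for 1 transcribed locus) other than array controls. For each cluster the difference was the GS mean minus the average of the EDL and TA means, so that EDL and TA weighed the same. The mice, all FVB wild types and littermates, were injected at postnatal day 14 in 1 muscle of both hindlegs with WGA-HRP, a lectin tracer that axon terminals carry back to the MN cell body. The volume was 3 µl in GS and TA and 1 µl in EDL, the cords were taken after 48 h, and the stained cell bodies of 1 mouse, taken by laser capture, gave 1 array. In the study these pools stand for intermediate (GS), resistant (EDL) and vulnerable (TA) MNs in spinal muscular atrophy, but none of the mice carried a mutation. The sample labels speak of cervical cord cut at 20 µm, whereas the methods give 35 µm and place the cell bodies in the lumbar cord.

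MNs that supply the limbs lie in the lateral motor column (LMC). Its medial division sends axons to ventral limb muscles and is marked by the homeodomain factor Isl1, and its lateral division sends axons to dorsal muscles and is marked by Lhx1 and by the guidance receptor EphA4, as known from chick and mouse embryos. GS is supplied by the tibial nerve, a ventral branch, whereas EDL and TA are supplied by the peroneal nerve, a dorsal branch. Within a division, the MNs of 1 muscle cluster as a pool, which is held together by cadherins and set by transcription factors, Hox genes and signals from the muscle.

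The captured material carried MN transcripts in all 3 pools. Chat, the enzyme that makes acetylcholine, lay between 12.94 and 13.67 on the 9 arrays, and Slc18a3, the vesicular acetylcholine transporter, between 13.21 and 14.60, where the negative controls of the array had a median of 6.18. Of 14 MN identity genes, 1 was past an unadjusted p of 0.05 (Isl1, higher in GS), with 0 higher without GS mouse M30, 8 without TA mouse M3, and 4 lower without TA mice M0 and M1. Their mean level was 12.47 to 12.51 in GS, 12.56 to 12.70 in EDL and 11.82 to 12.51 in TA. Hoxc10, a Hox gene of lumbar levels, lay between 12.18 and 12.96 on all arrays. Markers of the surrounding tissue were measured as well, and Mbp, a myelin protein, lay between 14.59 and 14.99. In the TA pool, mice M0 and M1 were unlike the rest. They lay at 77.3 and 98.5 on the main axis of variation (56.5% of the total), where the other 7 arrays ran from -45.6 to 8.72, and they told positive from negative controls less well (area under the curve 0.778 and 0.779, against 0.828 to 0.854). For the genes set furthest apart, and where the pools are unequal, the difference is therefore given against EDL and against TA as well. The 3 lowest mouse numbers all belong to TA, so a batch tied to the numbers and the TA pool cannot be told apart.

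No transcript cluster separated GS from the other pools after adjustment. By limma with Benjamini-Hochberg adjustment, 0 of 65956 clusters (0%) had an adjusted p under 0.05, and the smallest adjusted p was 0.321. At an unadjusted p under 0.05 there were 3144 clusters (4.77%), where 3298 would fall under that threshold by its definition alone. Of these, 1691 (2.56%) were higher and 1453 (2.2%) were lower in GS. Their share of all clusters is at the level of the threshold, so none of the genes below is called, and the values are given as a description. Only 58 clusters differed by more than 1 on the log2 scale. The sides of the comparison were unequal. Between GS and EDL, 0 clusters (0%) had an adjusted p under 0.05, with 2421 at the unadjusted threshold, and between GS and TA 418 (0.634%) had one, with 10380 at the unadjusted threshold. Single mice decided these counts. Without TA mouse M3, 935 clusters were called for GS against both pools and 7177 against TA, whereas without any other single mouse the count against TA was 0 to 166, so an adjusted p given below for the TA side holds for the full set of arrays only.

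To tell a level particular to GS from a level that moved in 1 other pool, a cluster was described as set apart when its unadjusted p was under 0.05 and the 3 GS arrays lay all above or all below the 6 EDL and TA arrays. GS was set apart and higher in 343 clusters (0.52%) and set apart and lower in 307 (0.465%). No expected count was worked out for these shares, so they only describe the arrays. Among the 30098 named genes, 944 (3.14%) were higher and 610 (2.03%) were lower at the unadjusted threshold, and 173 (0.575%) and 183 (0.608%) were set apart. In the gene lists described here, higher and lower also stand for that unadjusted threshold, and 0 members had an adjusted p under 0.05. The shares of 3.14% and 2.03% are the ones to hold beside each list count. Of the 3144 clusters under the threshold, the GS mean lay above both other means in 1239 (39.4%), below both in 1179 (37.5%) and between them in 726 (23.1%). In these 726 clusters GS was above 1 of the other pools and below the other.

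The genes set furthest apart on the high side included a transporter of inhibitory transmitters, a calcium buffer, a kappa opioid receptor, an Eph receptor and several genes best known from glia. The values of the 12 highest and the 12 lowest genes, ranked by the smaller of their differences from EDL and from TA, are plotted for each array. Values for single arrays are given in the order of mice M13, M30 and M31 for GS, M11, M14 and M33 for EDL, and M0, M1 and M3 for TA.

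**Figure D1:**
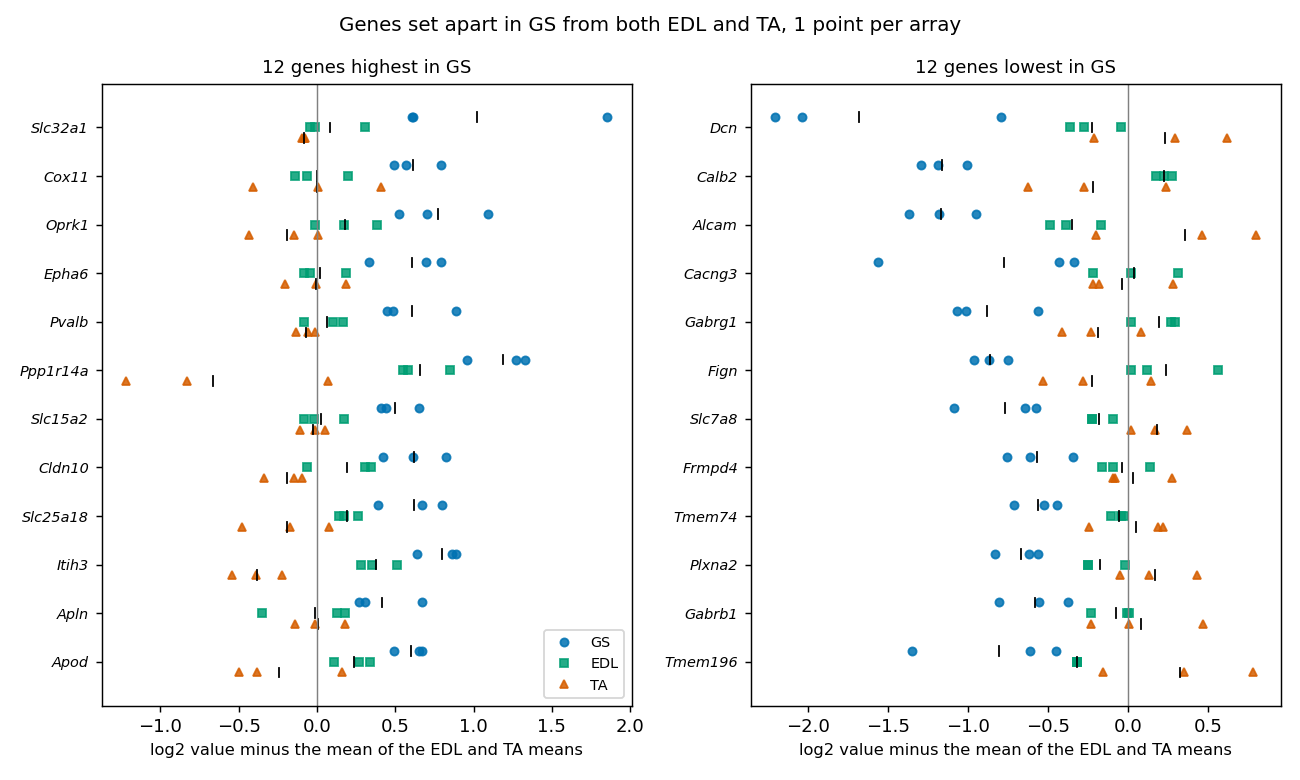
Log2 array value minus the average of the EDL and TA means (x axis) for the 12 genes highest and the 12 genes lowest in GS, with 1 point per array (circles GS, squares EDL, triangles TA) and a black bar at each pool mean. The GS points lie outside the range of the other 6 arrays in every row because the genes were chosen that way, and single GS arrays pull the mean in Slc32a1 (M30), Dcn and Cacng3 (M31).

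Slc32a1, the vesicular transporter for GABA and glycine, was first by this ranking. Its log2 values were 8.0, 9.25 and 8.01 in GS, 7.35, 7.38 and 7.70 in EDL, and 7.32, 7.30 and 7.31 in TA. Mouse M30 stood above the other GS mice, which themselves lay above both other pools. The difference was 1.03 ± 0.28 (SE), or 2.04-fold, with an adjusted p = 0.902 by limma, and it was 0.61 without mouse M30. Pvalb, the calcium buffer parvalbumin, was measured at 8.27, 8.67 and 8.23 in GS, against 7.89, 7.70 and 7.95 in EDL and 7.73, 7.77 and 7.65 in TA. The difference of 0.60 ± 0.11 was of like size against EDL (0.54) and TA (0.67). Parvalbumin marks subsets of inhibitory interneurons and proprioceptive sensory neurons.

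Oprk1, the kappa opioid receptor, stood at 7.73, 7.55 and 8.12 in GS, 7.01, 7.41 and 7.20 in EDL, and 6.88, 6.59 and 7.03 in TA. The difference was 0.78 ± 0.16 (adjusted p = 0.722). Epha6, a receptor tyrosine kinase that binds ephrin-A ligands, was measured at 7.92, 8.02 and 7.56 in GS, 7.14, 7.41 and 7.18 in EDL, and 7.02, 7.41 and 7.22 in TA. It differed by 0.59 from EDL and by 0.62 from TA, and the EDL and TA arrays covered nearly the same range. Cox11, an assembly factor of cytochrome c oxidase, also differed by about the same amount from each (0.62 and 0.61). Apln, the precursor of the peptide apelin, was 0.41 ± 0.15 higher, and its unadjusted p was over 0.05 without GS mouse M13, without TA mouse M1 or without TA mice M0 and M1.

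The other 6 genes on the high side were Ppp1r14a, an inhibitor of myosin phosphatase (1.19 ± 0.26), Itih3, a hyaluronan-binding protein (0.80 ± 0.09), Slc25a18, a mitochondrial glutamate carrier (0.62 ± 0.13), Cldn10, a tight junction claudin (0.62 ± 0.12), Apod, a lipid-binding apolipoprotein (0.61 ± 0.14), and Slc15a2, a peptide transporter (0.50 ± 0.08). In mouse brain, Itih3, Slc25a18, Cldn10 and Slc15a2 are known from astrocytes, and Ppp1r14a and Apod from oligodendrocytes. Ppp1r14a differed by 0.53 from EDL and by 1.85 from TA, so most of its difference lay on the TA side. Slc25a18 (0.43 and 0.81), Cldn10 (0.43 and 0.82) and Apod (0.37 and 0.84) were also less far from EDL than from TA, whereas Slc15a2 was about as far from each (0.48 and 0.52). Itih3 had the smallest p of the 24 genes. Its values were 12.91, 12.94 and 12.69 in GS, 12.33, 12.40 and 12.56 in EDL, and 11.66, 11.51 and 11.83 in TA, with an adjusted p = 0.393 by limma. The pools stood in the order GS, EDL, TA with no overlap between any of them, and the GS-TA side (1.18) passed the adjustment (adjusted p = 0.0238) and the GS-EDL side (0.42) did not.

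The genes set furthest apart on the low side included a matrix proteoglycan, a calcium buffer, an adhesion molecule, GABA-A receptor subunits and a semaphorin receptor. Dcn, the matrix proteoglycan decorin, was first. It was measured at 7.11, 7.28 and 8.52 in GS, 9.27, 8.95 and 9.04 in EDL, and 9.61, 9.10 and 9.93 in TA. The lowest EDL array lay above the highest GS array, although mouse M31 stood well above the other GS mice. The difference was -1.68 ± 0.33, or 3.20-fold lower in GS (adjusted p = 0.722).

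Calb2, the calcium buffer calretinin, stood at 13.36, 13.54 and 13.25 in GS, 14.82, 14.77 and 14.72 in EDL, and 13.92, 14.27 and 14.78 in TA. It was 2.24-fold lower in GS, with a difference of -1.16 ± 0.17 (adjusted p = 0.684). The GS arrays lay close together and the TA arrays spread over the gap between GS and EDL. Alcam, an immunoglobulin adhesion molecule of growing axons, was measured at 10.62, 10.85 and 10.43 in GS, 11.63, 11.31 and 11.41 in EDL, and 11.60, 12.26 and 12.60 in TA. It was 2.25-fold lower in GS (-1.17 ± 0.21, adjusted p = 0.722). The difference was larger against TA (-1.52) than against EDL (-0.82).

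Gabrg1, the gamma-1 subunit of the GABA-A receptor, stood at 10.09, 10.54 and 10.03 in GS, 11.37, 11.39 and 11.12 in EDL, and 10.87, 10.69 and 11.18 in TA, a difference of -0.88 ± 0.15. Gabrb1, the beta-1 subunit, was also lower (-0.58 ± 0.16), at 9.99 to 10.42 in GS and 10.56 to 11.26 on the other arrays. Both genes lie on chromosome 5, in a cluster of GABA-A subunit genes. Fign, the microtubule-severing enzyme fidgetin, differed by -0.86 ± 0.17, with 7.82 to 8.03 in GS, 8.80 to 9.34 in EDL and 8.25 to 8.92 in TA. Slc7a8, a carrier of neutral amino acids, differed by -0.77 ± 0.13, and its GS-TA side of -0.96 had an adjusted p = 0.0481.

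Plxna2, a receptor for semaphorins, differed by -0.67 ± 0.12, Frmpd4, a postsynaptic scaffold protein, by -0.57 ± 0.13, and Tmem74, a protein of autophagy, by -0.55 ± 0.11. Plxna2 differed by -0.50 from EDL and by -0.84 from TA, whereas Frmpd4 (-0.54 and -0.61) and Tmem74 (-0.50 and -0.61) were about as far from each. Cacng3, an auxiliary subunit of AMPA receptors, was 8.89 and 8.98 in GS mice M13 and M30 but 7.76 in M31. Its difference of -0.77 ± 0.29 was -0.38 without that mouse (-0.81 against EDL and -0.73 against TA with all arrays). It kept an unadjusted p under 0.05 in 10 of 17 alternative settings, and lost it without GS mouse M31, EDL mouse M11 or M14, TA mouse M0 or TA mice M0 and M1, with array weights and with the plain unmoderated test. Tmem196 (-0.80 ± 0.25) differed by -0.48 from EDL and by -1.13 from TA, and it lost the unadjusted threshold without GS mouse M31. Of all 24 genes, 2 passed the adjustment on the GS-TA side and 0 on the GS-EDL side. An unadjusted p under 0.05 was kept by 21 in all 17 alternative settings. The 24 genes were chosen by that threshold and by lack of overlap on the same arrays, so this adds little separate support.

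**Figure D2:**
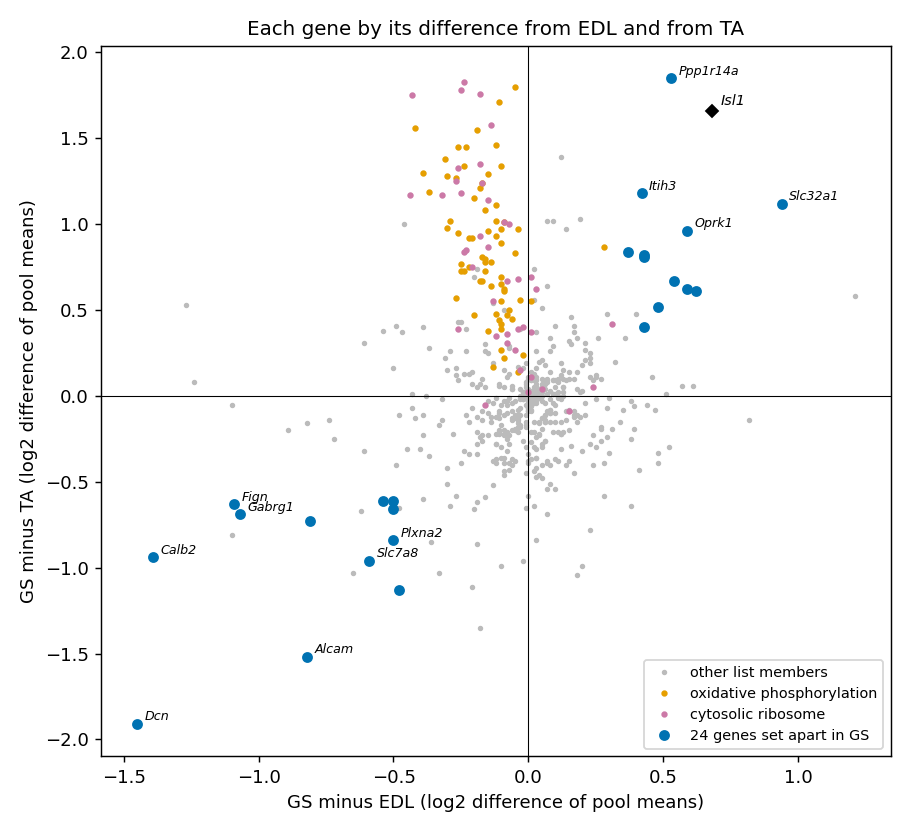
GS minus EDL (x axis) against GS minus TA (y axis), both as log2 differences of pool means, for the 24 genes set apart in GS (large blue points), Isl1 (black diamond), the members of the oxidative phosphorylation and cytosolic ribosome lists, and all other list members (grey). The 24 genes lie in the upper right and lower left quadrants, whereas nearly all the points of oxidative phosphorylation lie above 0 on the y axis and left of 0 on the x axis.

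Because the LMC divisions are set by homeodomain factors, the promoters of the 24 genes were searched for TAATTA, the core that many such factors bind, which reads the same on both strands. The windows ran from 250 bases before to 50 bases after each start, from the RefSeq table of GRCm38.p6, where 11 of the 12 highest and 9 of the 12 lowest genes had an entry. TAATTA was present in 3 of the 9 lowest genes (33.3%), in 1 of the 11 highest (9.09%) and in 6.12% of 27025 genes in the table. Counted by window, the share over the table was 5.29% of 32851. A gene counted when any of its windows matched, so genes with several windows had more chances. None of the 24 genes was called and the counts are small, and whether the shares differ was not tested. The windows of the 3 low genes with a match are shown. Each lies on the minus strand and is printed 5′ to 3′ with the matches in capitals. The 1 high gene with a match was Cldn10, at chr14:118787621-118787920, where it began 197 bases before the start, and its window is not shown. Gabrg1 is at chr5:70842568-70842867, where the capitals hold 2 overlapping matches, Slc7a8 at chr14:54781837-54782136, and the Frmpd4 window, 1 of 3 for that gene, at chrX:168577185-168577484.
Gabrg1: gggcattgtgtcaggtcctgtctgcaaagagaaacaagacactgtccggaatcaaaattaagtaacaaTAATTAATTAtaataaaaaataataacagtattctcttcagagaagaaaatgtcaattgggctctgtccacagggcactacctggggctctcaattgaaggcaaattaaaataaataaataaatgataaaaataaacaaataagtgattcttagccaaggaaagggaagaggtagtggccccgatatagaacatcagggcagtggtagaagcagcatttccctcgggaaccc
Slc7a8: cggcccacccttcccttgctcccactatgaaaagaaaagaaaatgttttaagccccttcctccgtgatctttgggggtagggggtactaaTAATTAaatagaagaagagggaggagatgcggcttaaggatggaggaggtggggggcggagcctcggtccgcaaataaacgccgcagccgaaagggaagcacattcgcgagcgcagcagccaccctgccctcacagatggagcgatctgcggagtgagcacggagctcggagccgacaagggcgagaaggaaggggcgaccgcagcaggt
Frmpd4: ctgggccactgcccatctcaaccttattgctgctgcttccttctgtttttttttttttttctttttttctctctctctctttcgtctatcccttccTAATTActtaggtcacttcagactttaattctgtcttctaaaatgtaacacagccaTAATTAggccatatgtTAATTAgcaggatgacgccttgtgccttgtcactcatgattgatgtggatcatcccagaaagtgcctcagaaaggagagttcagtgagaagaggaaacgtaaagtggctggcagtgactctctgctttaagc
The first match began 182 bases before the start in Gabrg1, 160 in Slc7a8 and 154 in Frmpd4. A match is a run of letters only, and binding was not measured.

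The 10 clusters with the smallest p ranged widely in the size of their difference. First was Cbarp, an inhibitor of voltage-gated calcium channels, at 9.12, 9.08 and 9.09 in GS, 9.29 in each EDL mouse, and 9.55, 9.58 and 9.61 in TA (-0.34 ± 0.03, adjusted p = 0.321). Its difference was small and the spread of the array values within each pool smaller still. At 61.6% of clusters at least 1 pair of arrays held the same value. Whether so small a spread is that between mice was not tested. Plxna4, a semaphorin receptor, followed with 12.41, 12.31 and 12.36 in GS, 12.61, 12.68 and 12.60 in EDL, and 12.86 and 12.97 in TA mice M0 and M1 and 13 in M3 (-0.43 ± 0.05). Agtr2, the type 2 receptor of angiotensin, differed by -0.49 ± 0.05, and Hgf, a growth factor that supports limb MNs, by -0.59 ± 0.06. All 4 genes stood in the order GS, EDL, TA from low to high, and each had an adjusted p = 0.321 here and an adjusted p under 0.05 on the GS-TA side (0.0157 to 0.0286). Stmn1, a tubulin-binding protein, was also among the 10, but GS lay below EDL (-0.13) and above TA (0.92), and its difference of 0.39 ± 0.05 therefore came from TA. The largest difference of the 10, 1.73 ± 0.21, belonged to a cluster with no gene symbol, at 11.21, 11.37 and 11.67 in GS, 10.64, 11.02 and 11.56 in EDL, and 8.52, 8.10 and 8.30 in TA. GS and EDL overlapped there, with 0.34 against EDL and 3.11 against TA (adjusted p = 0.0181).

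**Figure D3:**
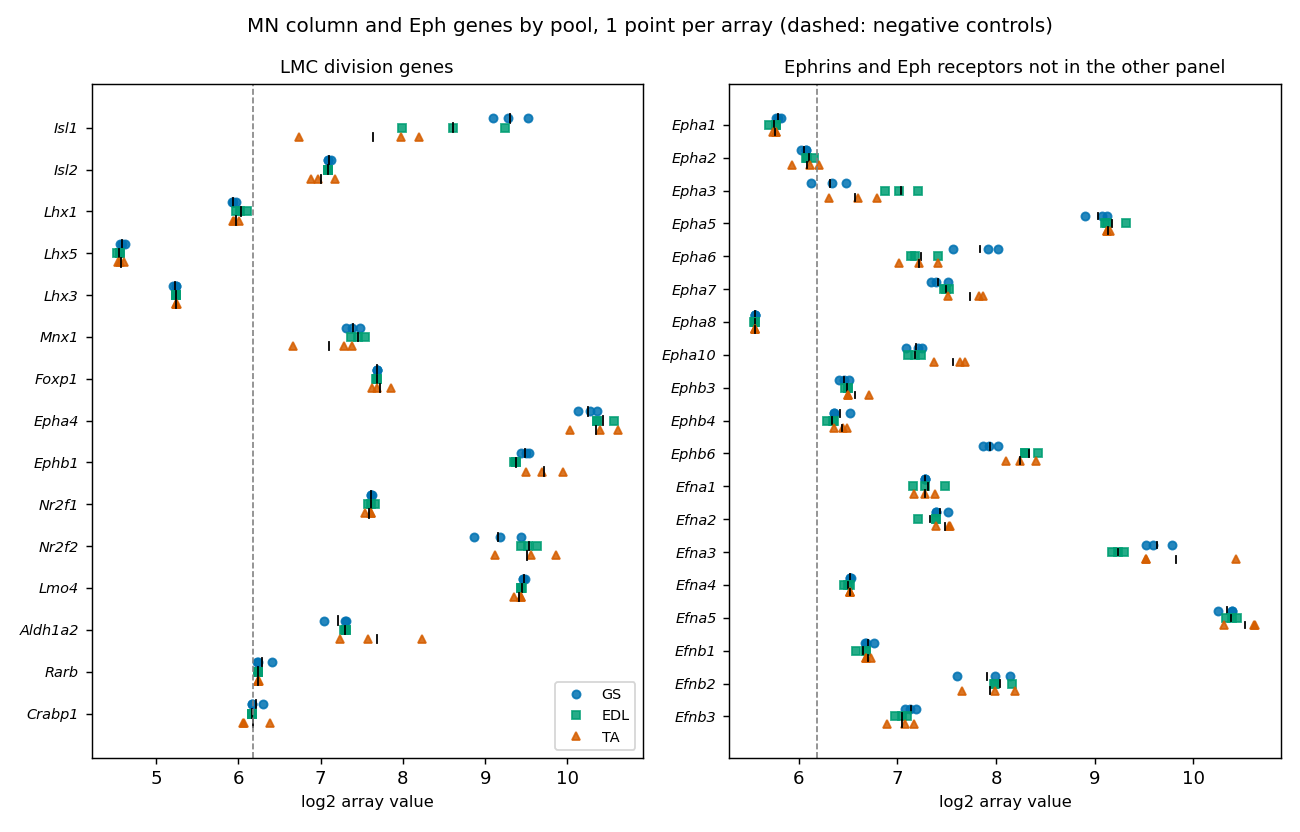
Log2 array values (x axis) of the measured LMC division genes (left) and of the other ephrins and Eph receptors (right), with 1 point per array (circles GS, squares EDL, triangles TA), black bars at pool means and a dashed line at the median of the negative controls. Isl1 is highest in GS but its lowest GS value, 9.10, lies below EDL mouse M14 at 9.24, whereas the 3 GS values of Epha6 lie above all others.

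Of the genes that tell the LMC divisions apart, 15 of 17 listed were measured, 1 was higher in GS, 0 were lower and 0 were set apart, and the median difference was 0.01. The count of lower members was 3 without TA mouse M1, and also 3 without TA mice M0 and M1. The 1 gene with all arrays was Isl1, the marker of the medial division. It stood at 9.28, 9.52 and 9.10 in GS, 7.99, 9.24 and 8.61 in EDL, and 8.20, 6.74 and 7.98 in TA. The order of the pool means was GS, EDL, TA, but EDL mouse M14 reached into the GS range. The difference was 1.17 ± 0.38, or 2.26-fold (adjusted p = 0.973), with 0.68 against EDL and 1.66 against TA (adjusted p = 0.135). It ranged from 0.95 to 1.33 over the alternatives, and its unadjusted p was over 0.05 without GS mouse M30.

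Lhx1, the marker of the lateral division, gave no contrast that could be read. It lay between 5.92 and 6.10 on all 9 arrays, below the negative control median, as did Lhx5 and Lhx3. Epha4, the receptor of the lateral division, was measured at 10.13, 10.27 and 10.36 in GS, 10.36, 10.36 and 10.56 in EDL, and 10.40, 10.03 and 10.61 in TA, a difference of -0.13 ± 0.13. The TA array at 10.03 was mouse M1, and without TA mice M0 and M1 the difference was -0.26 ± 0.08 (adjusted p = 0.435). Nr2f2, an orphan nuclear receptor, differed by -0.36 ± 0.18 with all arrays and by -0.54 ± 0.16 without these mice. Aldh1a2, which makes retinoic acid in limb MNs, differed by -0.27 ± 0.20 with all arrays and by -0.22 ± 0.08 without them. Isl1 was still higher in GS without TA mice M0 and M1, by 1.0 ± 0.34. On the TA side these differences rest on mouse M3 alone. Foxp1, the factor that sets LMC identity as a whole, lay between 7.63 and 7.86 on all arrays.

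Of 26 measured transcription factors of motor pools, 3 were higher in GS (1 without GS mouse M13), where 3.14% of all named genes were. In this list 0 were lower and 0 were set apart. Nkx6-2 (0.38 ± 0.11) differed by 0.02 from EDL and by 0.74 from TA, and Nkx6-1 lay below the negative control median in all pools. Maf differed by 0.36 from EDL and by 0.34 from TA, with 11.46, 11.20 and 11.73 in GS against 10.89 to 11.29 on the other arrays, so that mouse M30 lay inside their range. The pool factors Etv4 and Pou3f1 differed by 0.00 ± 0.07 and 0.01 ± 0.05. Of 10 lumbar Hox genes, 0 were higher and 0 lower, with a median of 0.08, but 4 were higher without GS mouse M31. Hoxd10 was 10.28, 10.88 and, in mouse M31, 9.47 in GS and 8.48 to 10.63 on the other arrays. Of 11 brachial and thoracic Hox genes, 1 was lower, Hoxc5, which was below the negative control median in all pools and differed from TA alone (-1.04).

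Ephrins and Eph receptors guide limb axons at the base of the limb. Of 21 measured, 1 was higher in GS, Epha6, and 4 were lower (2 without GS mouse M13, EDL mouse M14 or EDL mouse M33). Over all named genes, 3.14% were higher and 2.03% were lower. Ephb6, a receptor without kinase activity, was the lower gene set apart, at 8.02, 7.93 and 7.87 in GS, 8.43, 8.29 and 8.29 in EDL, and 8.10, 8.24 and 8.40 in TA (-0.35 ± 0.07, adjusted p = 0.722). Epha3 (-0.48 ± 0.13) was lower than EDL by 0.72 in the log2 means but overlapped TA, where the lowest array was 6.31 and the highest GS array 6.48. Epha10 and Epha7 differed from TA (-0.38 and -0.32) and hardly from EDL (0.00 and -0.08).

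Among 29 semaphorins, plexins and neuropilins, 0 were higher and 3 were lower in GS, where 2.03% of all named genes were lower. All 3 were A-type plexins, the signalling receptors of semaphorins. Plxna4 and Plxna2 were set apart and Plxna1 (-0.25 ± 0.10) was not. The lower count was 2 to 5 with 1 mouse left out (5 without TA mouse M1) and 8 without TA mice M0 and M1. Among 20 netrin, Slit and related genes, 0 were higher and 3 were lower, Dscam, Robo2 and Neo1, and none of them was set apart. The lower count was 1 without GS mouse M31 and 5 without TA mouse M0. Dscam, an adhesion molecule and netrin receptor, was 0.07 higher than EDL and differed from TA by -0.69 (adjusted p = 0.0456). Among 22 trophic factor receptors, 0 were higher and 4 were lower, where 2.03% of all named genes were lower. Ntrk3 and Fgfr1 were set apart, and the lower count was 3 to 5 with 1 mouse left out. Ntrk3, the receptor of neurotrophin-3, was 11.88, 11.90 and 11.68 in GS, 12.01 to 12.02 in EDL and 12.29 to 12.61 in TA (-0.41 ± 0.08). Ret, the receptor of GDNF, was 14.21, 13.97 and 14.07 in GS, 14.74, 14.85 and 14.48 in EDL, and 14.28, 14.18 and 14.75 in TA (-0.46 ± 0.14), so that TA mouse M1 lay within the GS range.

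Adhesion genes counted more lower than higher members. Of 24 immunoglobulin adhesion molecules, 0 were higher and 9 were lower in GS, where 2.03% of all named genes were lower. Alcam, Cntn5, Opcml, Cntn4 and Cadm3 were the 5 set apart, and the count of lower members was 7 to 11 with 1 mouse left out and 14 without TA mice M0 and M1. The median over the list was -0.16, against 0.01 over all named genes, and it was made of -0.03 against EDL and -0.22 against TA. In Ncam2, a neural cell adhesion molecule, the difference lay mainly on the TA side, with 11.82 to 12.55 in GS, 12.28 to 12.55 in EDL and 13.43 to 13.82 in TA. Cntn5, a contactin, was lower on both sides, at 8.14 to 8.37 in GS, 8.51 to 8.67 in EDL and 8.75 to 9.22 in TA.

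Of 22 teneurins, latrophilins and other leucine-rich or neurexin-type synaptic adhesion genes, 0 were higher and 8 were lower. Among all named genes, 2.03% were lower. In the list, Lrrtm4 and Tenm2 were set apart, and 4 members were lower without GS mouse M30 or M31. The median was 0.00 against EDL and -0.24 against TA. Tenm1 (-0.54 ± 0.12) and Lingo2 (-0.66 ± 0.14) overlapped EDL and passed the adjustment against TA (adjusted p = 0.043 and 0.0424). Of 18 classical cadherins, 1 was higher and 1 lower (4 lower without TA mouse M0). Cdh4, R-cadherin, was set apart at 7.53, 7.32 and 7.36 in GS, 7.23, 7.23 and 7.05 in EDL, and 7.23, 7.12 and 7.19 in TA (0.23 ± 0.07). Cdh7 (-0.26 ± 0.05) had its highest GS array level with EDL. Of 12 delta protocadherins, 1 was lower, Pcdh17 (-0.16 ± 0.04), which was set apart, and 3 were lower without TA mouse M1.

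**Figure D4:**
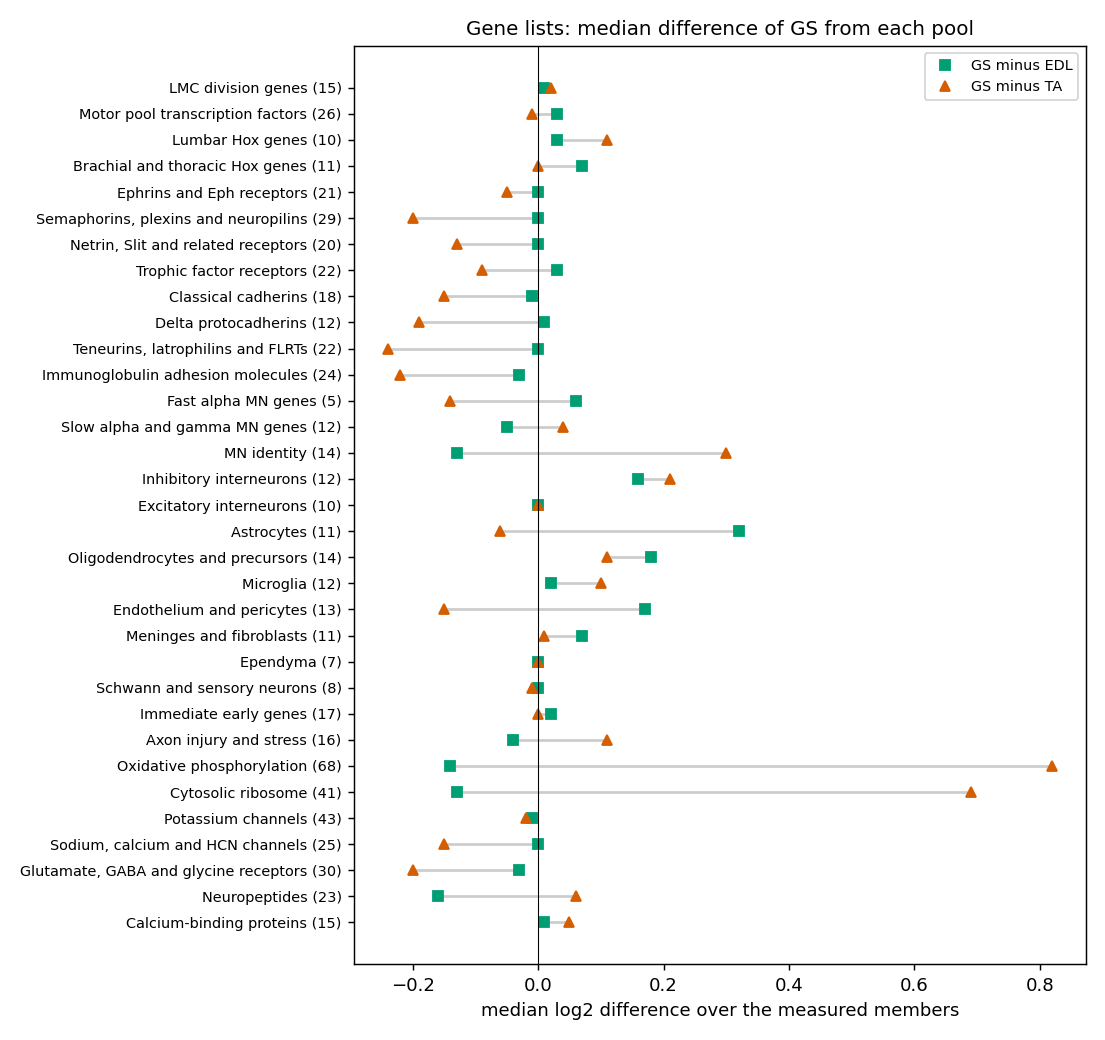
Median log2 difference over the measured members of each list (x axis), for GS minus EDL (squares) and GS minus TA (triangles), with the number of measured members in brackets. The adhesion, guidance and receptor lists lie near 0 against EDL and below 0 against TA, and oxidative phosphorylation and the cytosolic ribosome lie at -0.14 and -0.13 against EDL and at 0.82 and 0.69 against TA.

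Among 30 glutamate, GABA and glycine receptor genes, 0 were higher and 8 were lower, where 2.03% of all named genes were lower. The count of lower members was 5 without GS mouse M31, 14 without TA mouse M0 and 13 without TA mice M0 and M1. Gabrg1 and Gabrb1 were the 2 set apart. Glra2, a glycine receptor subunit, differed by -1.03 from TA and by -0.33 from EDL. The AMPA receptor subunits Gria1 and Gria2 differed by -0.40 ± 0.12 and -0.21 ± 0.09, the latter from TA alone (0.02 against EDL).

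Of 43 potassium channel genes, 4 were higher and 6 were lower, where 3.14% and 2.03% of all named genes were. The higher count was 2 without EDL mouse M11, GS mouse M13 or TA mouse M0, and the lower count was 4 to 8 with 1 mouse left out (4 without EDL mouse M11, GS mouse M31 or TA mouse M3) and 14 without TA mice M0 and M1. Kcnh5, a voltage-gated channel of the ether-a-go-go family, was set apart on the high side, at 11.06, 10.87 and 11.03 in GS, 10.77 to 10.78 in EDL and 10.63 to 10.76 in TA (0.26 ± 0.05). Its relative Kcnh1 was set apart on the low side, at 9.77, 9.76 and 9.67 in GS, 9.90 to 9.92 in EDL and 9.90 to 10.04 in TA (-0.20 ± 0.04). Kcnj3, a G protein-gated inward rectifier (-0.60 ± 0.18), and Kcnd3, a channel of the transient A-type current (-0.20 ± 0.06), were the other channels set apart, both lower. Of 25 sodium, calcium and HCN channel genes, 1 was higher, Hcn2 (0.55 ± 0.21), and 5 were lower, led by the L-type calcium channel gene Cacna1c (-0.23 ± 0.04). Hcn2 differed by 0.09 from EDL and by 1.02 from TA, and none of these genes was set apart. The lower count was 2 without GS mouse M30 or M31 and 9 without TA mice M0 and M1, and Hcn2 was not past the threshold without EDL mouse M11 or M14, GS mouse M13 or M31, TA mouse M1, or TA mice M0 and M1.

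Of 15 calcium-binding protein genes, Pvalb was higher and 4 were lower, 1 of them without GS mouse M30. Over all named genes, 3.14% were higher and 2.03% were lower. Calb2 was set apart, whereas Necab1 (-0.58 ± 0.17) was 1.10 lower than EDL and level with TA (-0.05). Among 5 genes of fast alpha MNs, Kcnc1 was higher (0.19 ± 0.05) and Mmp9 and Calcb were lower. Mmp9, a matrix protease, was 8.79 to 9.21 in GS and 9.05 to 9.10 in EDL but 9.75 to 10.27 in TA. Calcb, a CGRP peptide, was 13.74 to 13.94 in GS, 14.39 to 14.78 in EDL and 13.71 to 14.44 in TA, and it was the 1 lower gene of 23 neuropeptides, of which 0 were higher. Of 12 slow alpha or gamma MN genes, 1 was lower, Sv2c (-0.23 ± 0.07). Neither subtype list had a member set apart.

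Among genes of inhibitory interneurons, members of GABA and glycine transmission were higher in GS. Of 12 measured, 4 were higher, where 3.14% of all named genes were, and 3 were set apart (Slc32a1, Pvalb and Gad1). Slc6a5, the glycine transporter of inhibitory terminals, was 12.49, 13.57 and 12.91 in GS, 11.71, 11.63 and 12 in EDL, and 12.90, 12.30 and 12.04 in TA (0.89 ± 0.27, adjusted p = 0.951). It lay above EDL in all mice but overlapped TA mouse M0. Gad1, a GABA-synthesising enzyme, was 6.71, 6.99 and 6.67 in GS, 6.53 to 6.61 in EDL and 6.42 to 6.61 in TA (0.24 ± 0.08), a difference that lost the unadjusted threshold without GS mouse M30. Gad2 was 7.95 in mouse M30 and 6.80 in each of the other GS mice. The mean level of the list was 7.88 to 8.22 in GS, 7.75 to 7.79 in EDL and 7.67 to 7.87 in TA, and Pax2, En1, Lhx1 and Calb1 lay below the negative control median in all pools. Glra1, which was also on the list, is expressed by MNs too and lay between 15.52 and 16.14.

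In bulk material, fewer cells of a type and less RNA per cell cannot be told apart. Whether neighbouring cells or terminals captured with the MNs add to these values was not tested. Mouse M30 was also the highest of the GS mice in Slc17a6, the vesicular glutamate transporter of excitatory interneurons (7.96, against 6.46 and 6.21). Of 10 excitatory interneuron genes, 0 were higher and 0 lower, with mean levels of 6.17 to 6.39 in GS, 6.27 to 6.41 in EDL and 6.23 to 6.47 in TA.

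**Figure D5:**
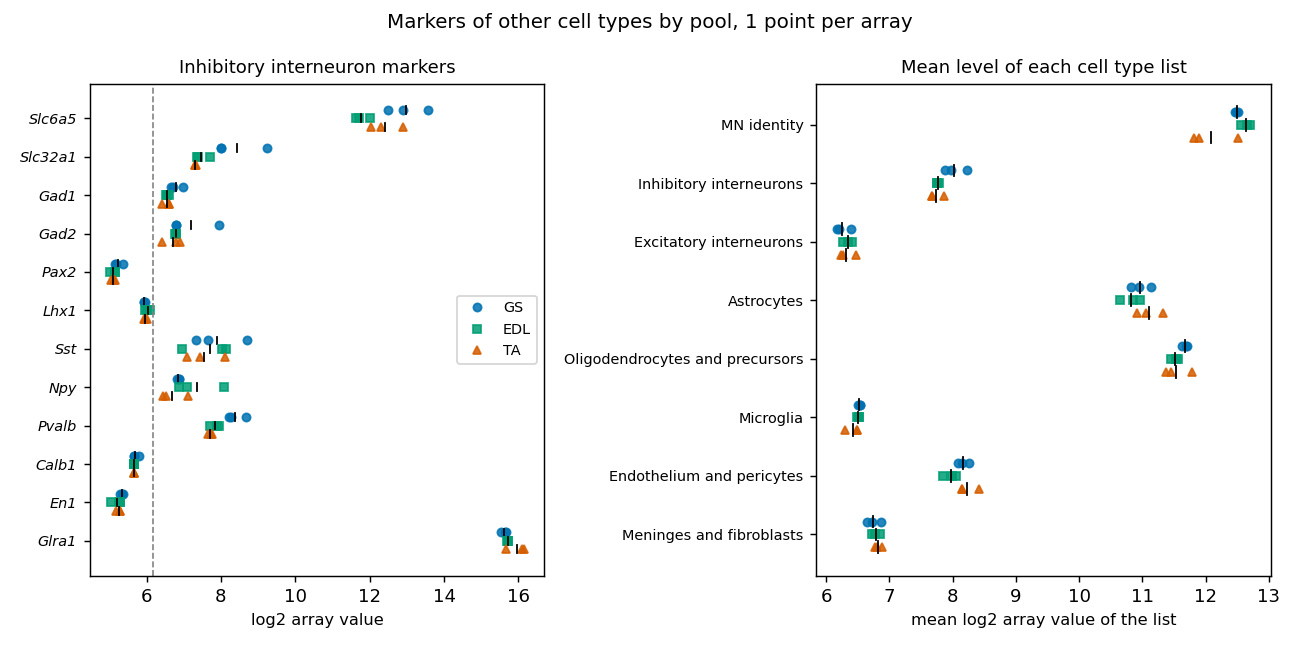
Log2 array values of the measured inhibitory interneuron markers (left; the dashed line is the median of the negative controls) and mean log2 value of each cell type list (right), with 1 point per array (circles GS, squares EDL, triangles TA) and black bars at pool means. The inhibitory list is the one whose 3 GS arrays, from 7.88 to 8.22, lie above all EDL and TA arrays.

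Oligodendrocyte genes also included members higher in GS. Of 14 measured, 4 were higher and 0 lower, where 3.14% of all named genes were higher. The higher count was 1 without GS mouse M13 and 7 without TA mouse M0. Sox10 and Olig2, transcription factors of the lineage, and the myelin gene Mog were set apart by 0.21 ± 0.07, 0.19 ± 0.07 and 0.31 ± 0.11, whereas Ermn overlapped EDL. The mean level was 11.63 to 11.71 in GS, 11.45 to 11.56 in EDL and 11.37 to 11.79 in TA, so that TA mouse M0 lay above GS. Of 11 astrocyte genes, 0 were higher and 0 lower, with mean levels of 10.82 to 11.13 in GS, 10.65 to 10.96 in EDL and 10.91 to 11.32 in TA, and Gfap was 9.68 to 11.19 in GS and 10.94 to 12.46 on the other arrays. The part of these cells in the values of Ppp1r14a, Apod, Itih3, Slc25a18, Cldn10 and Slc15a2 was not tested.

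In the remaining, short lists, the counts past the threshold stand beside 3.14% of all named genes higher and 2.03% lower. Of 12 microglia genes, 1 was higher (Csf1r), with 5 higher without TA mice M0 and M1, and the pool means of Aif1 and P2ry12 lay below the negative control median. Of 13 endothelial and pericyte genes, 2 were higher (Slco1a4 and Cldn5) and none was set apart. Of 11 meningeal and fibroblast genes, Dpt and Ptgds were higher and Dcn was lower. Dpt was set apart but lay below the negative control median in all pools. Col1a1 and Col1a2, which define fibroblasts, lay between 6.39 and 6.67 on all arrays, near the negative control median. The part of these cells in the Dcn values was not tested, and the mean level of the list was 6.65 to 6.87 in GS, 6.73 to 6.85 in EDL and 6.77 to 6.88 in TA. Of 8 Schwann cell and sensory neuron genes, 1 was lower and set apart, Pmp22 (-0.25 ± 0.05), and of 7 ependymal genes, 1 was higher (Rarres2). Neither of 2 measured blood genes passed the threshold, but both did without GS mouse M13. Of 17 immediate early genes, 1 was higher, Nr4a2 (0.14 ± 0.06). With 1 mouse left out, the lowest count was 0 for each of the microglial, ependymal, neuropeptide, immediate early and slow or gamma MN lists, which had 1 such member each.

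Of 16 genes of axon injury and stress, 2 were higher (Ddit3 and Xbp1) and 2 were lower (Gap43 and Sprr1a). Over all named genes, 3.14% were higher and 2.03% were lower. Gap43, a protein of growing axon terminals, was 11.09, 10.87 and 10.56 in GS, 11.64, 11.83 and 11.72 in EDL, and 11.12, 10.90 and 11.09 in TA. GS was 0.89 below EDL and 0.20 below TA in the log2 means, and the GS and TA arrays overlapped.

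Energy and ribosome genes had positive differences that did not set GS apart. Of 68 nuclear-encoded subunits of oxidative phosphorylation, 7 were higher, where 3.14% of all named genes were, and 0 were lower or set apart. With 1 mouse left out the higher count ran from 1 to 60 (60 without TA mouse M3). Over the 68 subunits the median was 0.33, made of -0.14 against EDL and 0.82 against TA, and without TA mice M0 and M1 it was 0.02. The mean level was 11.85 to 12.04 in GS, 12.06 to 12.21 in EDL, and 10.85, 10.74 and 11.71 in TA, so that GS lay just below EDL. Cox6a1, a subunit of cytochrome c oxidase, was an exception, higher on average in GS than in EDL, with 14.73, 14.81 and 14.42 in GS, 14.46, 14.18 and 14.48 in EDL, and 13.56, 13.65 and 14.15 in TA. Of 41 cytosolic ribosome genes, 15 were higher, where 3.14% of all named genes were, and 0 were set apart. The higher count was 8 without GS mouse M30 and 29 without TA mouse M3. It included Rps3a1, Rps3a2 and Rps3a3, which share a family name and differed by like amounts (0.72, 0.79 and 0.80). The 15 may therefore not be independent of each other. The median of the list was -0.13 against EDL and 0.69 against TA. In Rpl7, GS (9.17 to 9.32) and EDL (9.30 to 9.31) shared a level and TA lay lower (8.48 to 8.75).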

How the data were processed

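RNA of laser-captured MNs was measured on 9 arrays (GeneChip Mouse Transcriptome Assay), 3 mice per pool, with the pool taken from the sample labels. The log2 values were deposited by the authors after background correction, normalization and summarisation (the methods name sst-RMA and the submitters' notes name RMA) and were used with no further scaling. Such summaries are known to compress the fold changes of dim probes, and at 61.6% of clusters at least 1 pair of arrays held the same value. Of 72688 probe sets, 6732 controls were left out. Gene names came from the platform annotation (30638 clusters with 1 symbol, 2176 with several and 33142 with none), and 330 symbols were updated from the GRCm38.p6 gene table. Clusters with several symbols were not named, and each of 30098 genes was represented by its brightest cluster.

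The contrast GS minus the average of EDL and TA was fitted with limma 3.58.1 in R 4.3.3 (two-sided, with 1 mean per pool over the 9 arrays and a prior of 1.40 degrees of freedom), with Benjamini-Hochberg adjustment over 65956 clusters, and GS minus EDL and GS minus TA came from the same fit. Since 1 array is 1 mouse, errors stand for the spread between mice, but whether the smallest spreads do so was not tested. Precision is limited by having 3 arrays a pool. The fit was also run on simulated data with normal noise alike in all pools. That setting had no outlying TA arrays and no tied values, so it cannot show how the fit behaves with those. The 12 highest and 12 lowest genes were those set apart from both pools, with 1 symbol that is not a placeholder, pseudogene, olfactory or vomeronasal receptor or small RNA, and a pool mean above the negative control median (81 higher and 128 lower genes qualified), ranked by the smaller pool difference. Members of the LMC division, pool factor and Eph lists with an unadjusted p under 0.05, up to 3 of every other list with the smallest p, and cell type markers were named by rule, and the rest were picked with their values in view. The comparison, the members and the 35 lists were chosen with earlier results of these data known. Alternatives were leaving out each mouse or TA mice M0 and M1, other scalings, a filter on low signal, other estimates of the spread, and EDL and TA as 1 group.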

Additional observations from a re-analysis of the deposited data

How the results depend on the processing

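The count of 0 clusters at an adjusted p under 0.05 became 3 with a plain unmoderated test and ranged from 0 to 935 when 1 mouse was left out, with 935 without TA mouse M3, which leaves TA mice M0 and M1 as the TA pool, and 0 without any other. The 1691 higher clusters at the unadjusted threshold became 979 with EDL and TA as 1 group, 2990 with array weights, 1062 with the filter on low signal and 3618 without TA mice M0 and M1, and 1201 to 4086 with 1 mouse left out. The 1453 lower clusters became 673, 2628, 960 and 2816 in the same order, and 943 (without GS mouse M13) to 3706 (without TA mouse M3) with 1 mouse left out. The 343 clusters set apart and higher became 183 with the filter, 911 without TA mice M0 and M1 and 351 to 943 with 1 mouse left out (over 1.5 times without each GS mouse and without TA mouse M0), and the 307 set apart and lower became 187, 575 and 342 to 922 (over 1.5 times without each GS mouse). A filter tests fewer clusters, and fewer arrays overlap less often by construction; the causes of the other shifts were not tested. Without TA mice M0 and M1 the remaining TA array is assumed to vary like the other pools.

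GS versus EDL gave 0 to 13 clusters with 1 mouse left out (13 without GS mouse M13). GS versus TA, with 418, gave 69 with an intensity trend and robust prior, 1282 with the filter, 9 with the plain test, 782 after quantile normalization, 106 without TA mice M0 and M1, 0 from the GS and TA arrays alone and 0 to 7177 with 1 mouse left out. Of 129 genes under 17 alternatives, 0 of 2188 values turned direction and 18 passed the adjustment, all without TA mouse M3. These were the 24 genes set apart and the list members under the unadjusted threshold with all arrays. The alternatives use the same arrays, so a kept direction was largely fixed by that choice. Of 595 medians of lists, 11 moved by over 0.1 and 2 that were over 0.1 in size changed sign. No paired analysis was possible because each mouse was injected in 1 muscle and the pools share no mouse numbers.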

Other observations

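Xist, the RNA of the inactive X chromosome, was 6.03 in EDL mouse M11 and 13.22 to 13.46 on the other 8 arrays, and the Y-linked genes Eif2s3y (8.40), Kdm5d (7.26) and Uty (8.0) were highest on the same array, against 5.31 to 5.41, 5.26 to 5.43 and 5.08 to 5.26 on the others. The labels give no sex, and the methods state that both male and female mice were used. None of 6 measured sex-linked genes passed the unadjusted threshold between GS and the other pools (Xist 1.27 ± 1.53, adjusted p = 0.976 by limma). With EDL mouse M11 so far from the others the spread of Xist was wide, so the fit cannot decide whether the pools differ in sex. Without EDL mouse M11, 0 clusters had an adjusted p under 0.05 for GS against both pools and 12 for GS against TA.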
